A study of Mus musculus with 6 samples.

Results

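The kinetochore is the protein assembly that forms on each centromere and attaches the chromosome to spindle microtubules, and the spindle checkpoint is the signal that unattached kinetochores send to delay anaphase. The 36 genes described here encode parts of both, and they were taken by symbol from the 30315 genes listed; all 36 were found. They fall into 6 roles. The inner kinetochore is represented by 12 genes, the outer kinetochore by 8, the fibrous corona by 3, the checkpoint by 6, the chromosomal passenger complex by 3, and the Ska complex with the astrin partner kinastrin by 4. The genes lie on 19 chromosomes. The rule that chose them names genes and uses no expression value, but the choice was made with earlier results of these data known.

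The RNA came from primary tubular epithelial cells (TECs) of C57BL/6 mouse kidney, the cells that line kidney tubules and divide to replace lost neighbours after injury. Cells at about 50% confluence received an siRNA against Sox9 (siSox9, 3 libraries) or a negative control siRNA (siNC, 3 libraries). Both groups then underwent hypoxia/reoxygenation (H/R), starting 12 h after transfection, with 6 h in glucose-free medium at 1.0% O2 and 18 h of reoxygenation in complete medium, so no library shows cells without H/R. The study asked how SOX9, a transcription factor of repairing tubules, acts on proliferation. The labels give 1 siRNA for each group, so effects of losing Sox9 and effects of the siRNA sequence itself cannot be told apart. The sources used here do not say whether the 3 libraries of a group came from separate cultures or animals, and the p-values measure only the spread between these libraries.

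Sox9 itself was at 8.93, 8.61 and 9.07 FPKM with siSox9 and at 25.7, 26.5 and 25.6 FPKM with siNC, where FPKM counts fragments per kilobase of exon, scaled to the depth of the library. The siSox9 mean was 34.2% of the siNC mean. The depths by which the FPKM values were scaled, found from the steps between low values, ranged from 23893172 to 25725703 reads. At these depths, 1 read on a gene with 1 kb of exon was worth 0.0389 to 0.0419 FPKM. They are not totals of assigned reads: the reads implied for the listed genes summed to 25271429 to 27211171, above the depth in every library. The 7 tubule epithelial markers were all above 1 FPKM and summed to 3603 to 3923 FPKM in the 6 libraries, whereas only 1 of the 5 listed markers of mature proximal tubule function reached 1 FPKM and their sums were 2.68 to 3.31 FPKM. Among the tubule epithelial markers, Cdh16 was higher with siSox9, at 128.4% of siNC without overlap (limma, adjusted p = 0.000307). The other 6 did not pass. Krt8 and Krt18 made up most of the tubule epithelial sums, so these sums do not show the rise of Cdh16. Summed levels were 58.1 to 67.4 FPKM with siSox9 and 63.1 to 71.0 FPKM with siNC for 6 macrophage markers, 2.91 to 3.10 and 3.22 to 4.12 FPKM for 5 endothelial markers, and 6.24 to 7.76 and 7.72 to 8.79 FPKM for 5 fibroblast markers. Of these, 4 macrophage, 1 endothelial and 1 fibroblast marker had a high enough level to be tested, and none of the 6 passed in either direction. The other 10 were under 1 FPKM and could not pass; among them Emcn (0.690, 0.699 and 0.604 FPKM with siSox9 against 1.15, 1.01 and 1.08 FPKM with siNC, or 61.4% of siNC), Pecam1 (84.3%) and Pdgfrb (77.4%) were lower in every siSox9 library than in any siNC library, and they were named after their values had been seen. None of the markers was at 0 in all libraries. Their part in the results below was not tested.

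Kinetochore and checkpoint genes are made mainly in dividing cells. Transcription of many of them peaks in G2 and mitosis, driven through promoter elements called CHR (cell cycle genes homology region) and CCAAT boxes, which are bound by the MuvB complexes and by NF-Y; genes of S phase more often carry E2F sites. In a bulk RNA sample, fewer dividing cells and less RNA per dividing cell cannot be told apart, and this holds for every level below.

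Because many members share these elements, their promoters are shown first. RefSeq promoters (GRCm38.p6, 250 bases before to 50 after each annotated start) were analysed for 30 of the 36 members. None was listed for Spc24, Nsl1, Zwilch, Incenp and Ska1, and that of Cdca8 was not analysed here. The letters searched on both strands were TTTGAA and TTCGAA for CHR, CCAAT for the CCAAT box, and TTCCCGC and TTGGCGC for E2F. The E2F letters TTGGCGC share TTGG with the reverse complement of the CCAAT box and can overlap it. In the following 30-base stretches, shown because a CHR match lay close to the start, capitals mark the CHR match and the sequence reads along the gene; the order goes from the member with the lowest siSox9 level relative to siNC to the highest.

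Ndc80 (chr17:71526811-71526840, - strand): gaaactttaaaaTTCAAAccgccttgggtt
Cenpf (chr1:189688067-189688096, - strand): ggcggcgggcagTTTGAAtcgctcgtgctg
Bub1b (chr2:118598231-118598260, + strand): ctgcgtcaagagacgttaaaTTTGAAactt
Cenpa (chr5:30666890-30666919, + strand): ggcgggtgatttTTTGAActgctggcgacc
Cenpn (chr8:116921719-116921748, + strand): gccattggcggcTTCAAAagcacctcggcg
Bub1 (chr2:127831828-127831857, - strand): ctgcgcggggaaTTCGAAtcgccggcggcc
Ttk (chr9:83834684-83834713, + strand): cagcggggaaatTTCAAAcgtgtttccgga
Spc25 (chr2:69206172-69206201, - strand): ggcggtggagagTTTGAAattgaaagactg
Ska3 (chr14:57826160-57826189, - strand): gcctgcgcaggaTTCAAAtgtgtagcgcgt
Cenpw (chr10:30200548-30200577, - strand): tccggcggccaaTTCAAAtcgaccactcgg
Bub3 (chr7:131560315-131560344, + strand): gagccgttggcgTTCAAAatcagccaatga

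A CHR match that began between 50 bases before and 49 bases after the start, a window chosen after the positions had been seen, was present in 11 of 30 members (36.7%). The same held for 1653 of 27025 genes with a listed promoter (6.12%) and for 376 of the 8643 genes with both a listed promoter and a level high enough to test (4.35%). Over the whole 300 bases a CHR match was present in 13 of 30 members (43.3%) and in 21.7% of all genes with a listed promoter. For tested genes with a listed promoter that share was 15.9%. CCAAT boxes were present in 19 members (63.3%), in 41.1% of all genes and in 42.8% of those tested, and E2F letters in 8 members (26.7%), in 7.79% of all genes and in 14.5% of those tested. These matches are a description of letters in a window and not of bound sites.

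Of the 20 members that fell in the test below and whose promoter was analysed, 9 held a CHR match near the start: Ndc80, Cenpf, Bub1b, Cenpa, Cenpn, Bub1, Ttk, Spc25 and Ska3. Of the 7 members that did not pass, Bub3 did, in the reverse direction and 43 bases before its first listed start. Over the whole 300 bases the shares were alike, with a CHR match in 9 of 20 members that fell (45.0%) and in 3 of 7 that did not pass (42.9%; Bub3, Cenpl and Cenpm). Mis12, Bub3 and Zwint each held at least 1 CCAAT box, but of these only Bub3 held a CHR match. The 150 bases before the start are shown for Ndc80, the member with the lowest log2 difference among those analysed, and for the 3 members with the smallest absolute differences, Mis12, Bub3 and Zwint; capitals mark CHR, CCAAT and E2F letters in either direction.

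Ndc80 (chr17:71526858-71527007, - strand): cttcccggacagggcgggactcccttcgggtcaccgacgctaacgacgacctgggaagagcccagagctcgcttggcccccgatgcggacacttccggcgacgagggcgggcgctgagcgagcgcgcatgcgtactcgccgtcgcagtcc
Mis12 (chr11:71019461-71019610, + strand): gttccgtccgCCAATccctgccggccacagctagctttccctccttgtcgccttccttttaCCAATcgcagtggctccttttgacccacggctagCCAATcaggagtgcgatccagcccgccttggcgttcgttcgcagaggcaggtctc
Bub3 (chr7:131560220-131560369, + strand): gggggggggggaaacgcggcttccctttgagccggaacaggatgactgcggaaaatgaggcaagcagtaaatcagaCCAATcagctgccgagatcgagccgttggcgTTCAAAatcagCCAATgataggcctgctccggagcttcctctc
Zwint (chr10:72654696-72654845, + strand): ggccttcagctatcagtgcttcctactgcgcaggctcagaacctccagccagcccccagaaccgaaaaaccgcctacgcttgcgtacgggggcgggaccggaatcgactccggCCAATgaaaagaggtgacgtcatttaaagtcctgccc

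Mis12, which did not pass, held 3 CCAAT boxes in this stretch, whereas the stretch of Ndc80 held none of the letters searched. Mis12 and Zwint had no CHR match anywhere in their 300 bases, and neither did Mad2l1, Birc5, Nuf2 and Knstrn, which were among the members that fell most. Of the 376 tested genes with a CHR match near the start, 117 (31.1%) were lower with siSox9, compared with 1621 of all 8643 tested genes with a listed promoter (18.8%). For the 473 tested genes with E2F letters near the start the share was 31.9%, and for the 1512 with a CCAAT box there it was 20.6%. The positions of all matches in the members, ordered by how much RNA was left, are plotted in the map of promoter motifs.

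**Figure D1:**
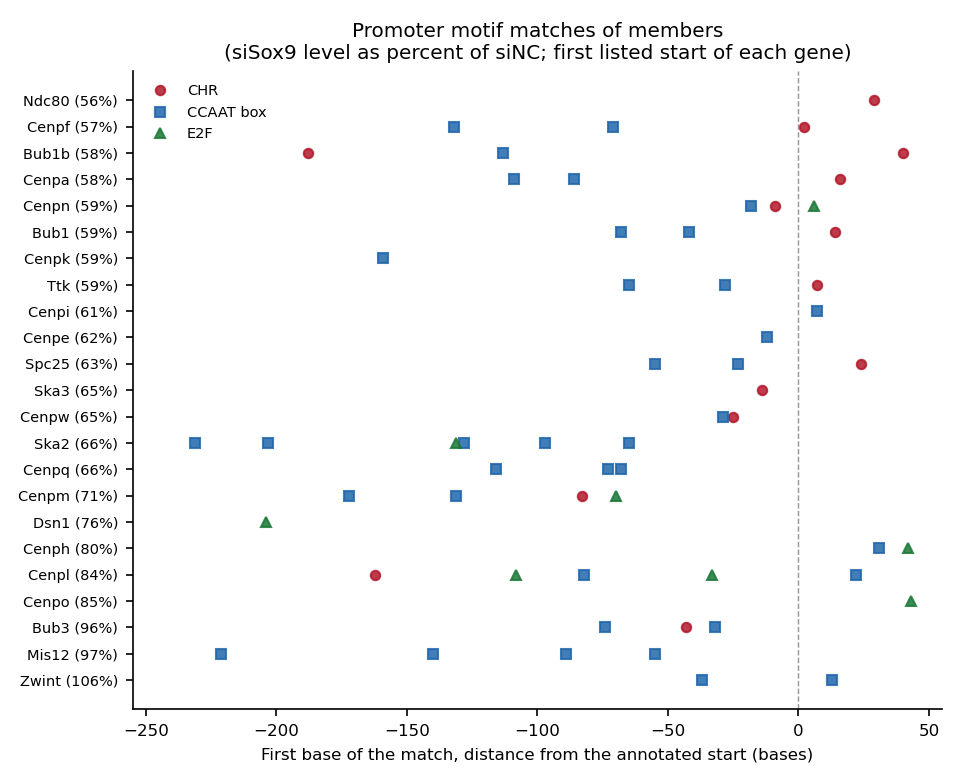
Matches to CHR (circles), CCAAT box (squares) and E2F (triangles) letters in the first listed promoter of each member analysed that held any, by distance of the first base of the match from the annotated start, with members ordered by siSox9 level as percent of siNC. CHR matches near the start belong to 10 members between Ndc80 at 55.9% and Cenpw at 64.8% and to Bub3 at 96.3%; Cenpm at 70.9% and Cenpl at 83.9% hold matches farther upstream.

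Turning to expression, most of the machinery was lower with siSox9. Of the 36 members, 33 had a mean of at least 1 FPKM over the 6 libraries and were tested; 26 of these were lower, none was higher and 7 did not pass (limma on log2(FPKM + 1), Benjamini-Hochberg adjusted p under 0.05 over all genes tested). Over all 12009 genes tested, 2118 were lower (17.6%) and 1532 were higher (12.8%), so that 58.0% of all calls were lower. This split depended on scaling: with each library centred on its median it was 1765 lower and 1959 higher, or 47.4% lower. The number higher also depended on which libraries were used. It was 1044, 944 and 1204 without siSox9 replicate 1, 2 and 3. Without siNC replicate 1, 2 and 3 it was 1565, 1143 and 1038. The median log2 difference of the tested members was -0.48, beside -0.01 for all genes tested. No member passed as higher under any scaling tried.

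All 3 siSox9 libraries were below all 3 siNC libraries for 33 of the 36 members, of which 30 were among the 33 tested. Such separation occurred for 26.1% of all genes tested. With 3 libraries against 3, the exact permutation test cannot give a p under 0.1 for a single gene. The siSox9 mean ranged from 44.8% of the siNC mean for Spc24 to 106% for Zwint, with a median over the 36 members of 62.8%. Less than 60% was left for 15 members, 60 to 80% for 13, and 80% or more for 8. The median member was shifted alike in every library, with a median deviation from each gene's own mean of -0.24, -0.23 and -0.19 on the log2(FPKM + 1) scale in the siSox9 libraries and 0.25, 0.22 and 0.26 in the siNC libraries. No single library carried the difference.

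**Figure D2:**
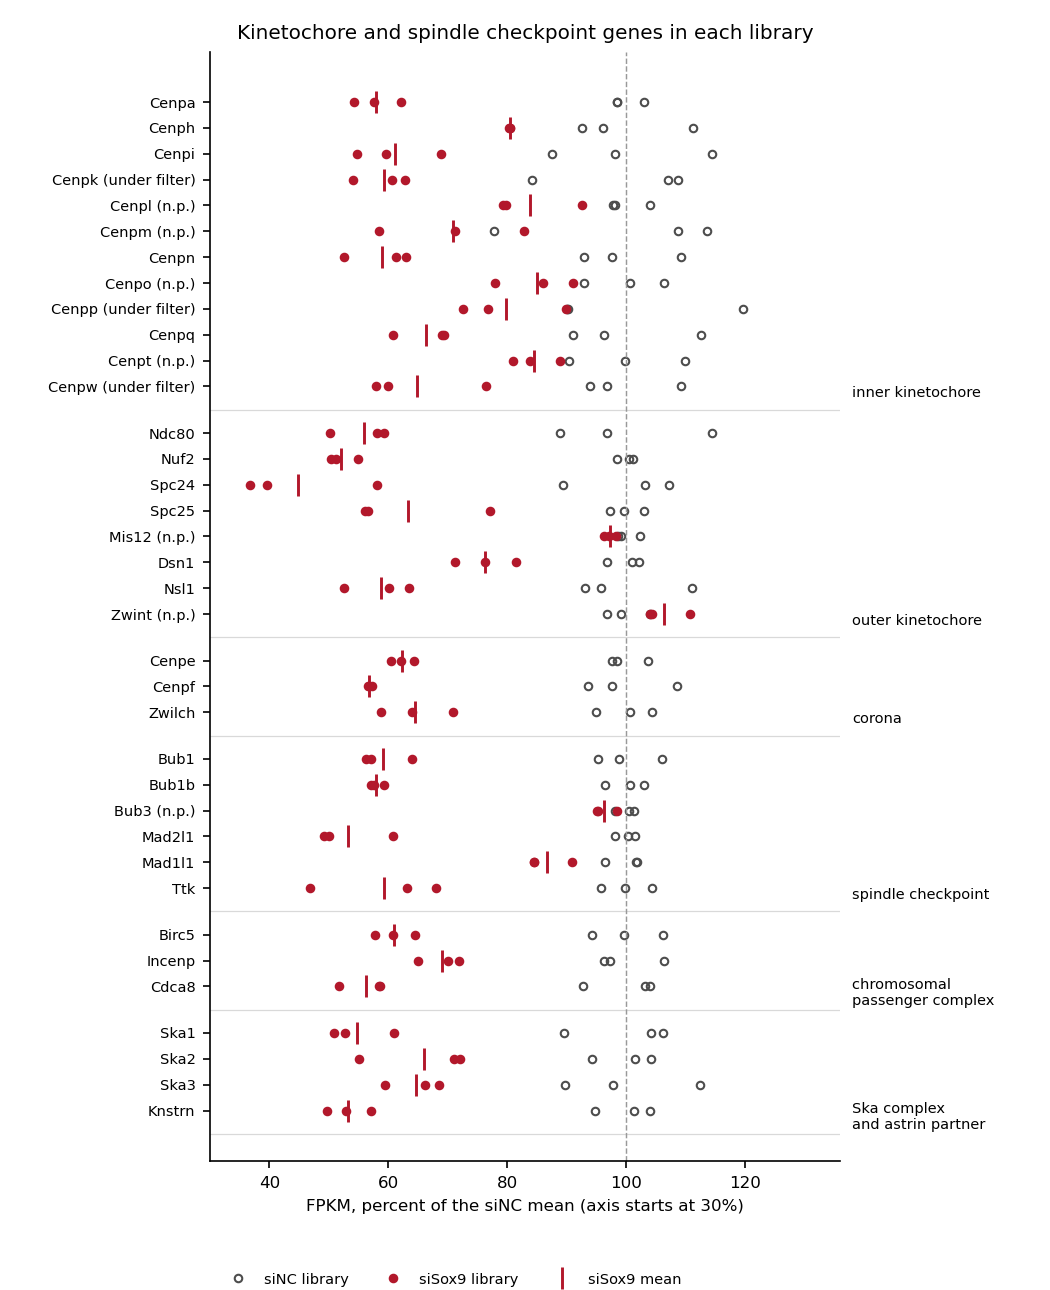
FPKM of each of the 36 members in each library, as percent of the siNC mean of that gene, grouped by role; open circles are siNC libraries, filled circles siSox9 libraries and bars the siSox9 means. Genes marked n.p. did not pass the test. Most siSox9 libraries sit between 50 and 75%, and Mis12, Bub3 and Zwint stand near 100%.

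The centromere is marked by Cenpa, the histone H3 variant on which the inner kinetochore is built. Cenpa was at 2.45, 2.65 and 2.31 FPKM with siSox9 and at 4.39, 4.20 and 4.20 FPKM with siNC. The siSox9 mean was 58.0% ± 2.44 (SE, n = 3 each) of the siNC mean, and the groups were far apart; the log2 difference was -0.60 with an SE of 0.0518 and an adjusted p of 0.000338 (limma). The other 11 inner kinetochore genes encode the constitutive centromere-associated network, which sits on Cenpa nucleosomes through the cell cycle. Of the 12 genes of this role, 9 were tested and 5 fell, with a median log2 difference of -0.29.

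Within this network the subcomplexes did not move evenly. Cenpn, which reads the Cenpa nucleosome and pairs with Cenpl, fell to 58.9% ± 4.33 of siNC, from 2.48 ± 0.209 to 1.46 ± 0.140 FPKM (SD, n = 3), with a log2 difference of -0.50. Its partner Cenpl was at 0.969, 0.975 and 1.13 FPKM with siSox9 and at 1.20, 1.20 and 1.27 FPKM with siNC, a log2 difference of -0.13 that did not pass (limma, adjusted p = 0.182). The groups of Cenpl did not overlap. In the Cenpo, Cenpp and Cenpq group, Cenpq fell to 66.4% ± 5.17 of siNC. Cenpo was at 0.958, 1.06 and 1.12 FPKM with siSox9 and at 1.24, 1.31 and 1.14 FPKM with siNC, and its log2 difference of -0.12 did not pass (limma, adjusted p = 0.224).

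The group of Cenph, Cenpi, Cenpk and Cenpm links the centromere to the microtubule-binding layer. Cenpi fell to 61.0% ± 6.31 of siNC, with a log2 difference of -0.43. Cenph was at 3.27, 3.27 and 3.26 FPKM with siSox9 and at 4.52, 3.76 and 3.90 FPKM with siNC. It fell by 0.24 on the log2 scale, but the call was not firm: the adjusted p of 0.0239 (limma) became 0.0647, 0.0688 and 0.0625 without siSox9 replicate 1, 2 and 3, and 0.0601 with limma voom on reads. Cenpm overlapped between the groups, with 1.20, 0.984 and 1.39 FPKM against 1.31, 1.83 and 1.91 FPKM; its log2 difference of -0.29 did not pass (limma, adjusted p = 0.0962) but reached an adjusted p of 0.0264 with a difference of -0.39 without siNC replicate 1, the lowest control library.

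Cenpt and Cenpw carry histone folds and anchor the Ndc80 complex. Cenpt, by level the highest of the inner kinetochore genes, was at 9.76, 9.19 and 8.87 FPKM with siSox9 and at 12.1, 9.90 and 10.9 FPKM with siNC. Its log2 difference of -0.22 lay at the threshold (limma, adjusted p = 0.0505) and passed without siNC replicate 2, where it was -0.28 with an adjusted p of 0.0198. The groups did not overlap.

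The 3 members under 1 FPKM were Cenpk, Cenpp and Cenpw. Cenpk was at 0.632, 0.610 and 0.544 FPKM with siSox9 and at 0.847, 1.08 and 1.09 FPKM with siNC. Cenpw was at 0.406, 0.421 and 0.537 FPKM against 0.679, 0.767 and 0.659 FPKM. Cenpp was at 0.485, 0.415 and 0.392 FPKM against 0.487, 0.646 and 0.487 FPKM, so that 1 siSox9 library lay next to a pair of control libraries. These levels correspond to between 24 and 142 reads per library. Limma voom on the recovered reads, with at least 10 reads over the 6 libraries, tested all 3; Cenpk (adjusted p = 0.000842) and Cenpw (adjusted p = 0.017) fell and Cenpp did not pass (adjusted p = 0.453). By this measure, which was added after the data had been seen, 33 members had whole reads, of which 26 fell and none rose, while 13.6% of the 17687 genes tested fell.

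The outer kinetochore holds the microtubule. Its core is the Ndc80 complex, a rod with Ndc80 and Nuf2 at the microtubule end and Spc24 and Spc25 at the centromere end. Spc24 had the largest log2 difference of all members: it was at 0.997, 1.58 and 1.07 FPKM with siSox9 and at 2.43, 2.80 and 2.91 FPKM with siNC. This left 44.8% ± 7.12 of siNC, with a log2 difference of -0.75, an SE of 0.108 and an adjusted p of 0.00258 (limma). Ndc80 was at 3.74, 3.17 and 3.67 FPKM with siSox9 and at 6.11, 5.61 and 7.22 FPKM with siNC, a log2 difference of -0.69. Nuf2 was at 1.07, 1.17 and 1.09 FPKM with siSox9 and at 2.15, 2.1 and 2.14 FPKM with siNC. The Nuf2 libraries of a group lay very close together, and 52.1% ± 1.44 of siNC was left. Spc25 fell to 63.3% ± 7.02 of siNC; its siSox9 replicate 2 stood above the other two, at 3.62 FPKM against 2.63 and 2.65 FPKM, and below the lowest siNC library at 4.56 FPKM. The same library was the highest of the 3 for Spc24.

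Mis12, Dsn1 and Nsl1 belong to the Mis12 complex, the bridge between the inner kinetochore and Ndc80, and they differed widely. Mis12 was at 11.5, 11.6 and 11.4 FPKM with siSox9 and at 11.6, 11.7 and 12.1 FPKM with siNC. Its mean was 97.3% ± 1.26 of siNC and its log2 difference of -0.04 did not pass (limma, adjusted p = 0.421), with a 95% confidence interval from -0.11 to 0.04. Nsl1 fell to 58.7% ± 4.62 and Dsn1 to 76.3% ± 3.20 of siNC, with log2 differences of -0.42 and -0.30. Zwint, which connects Knl1 to the corona, was the member with the highest level and the only one with a higher mean: 51.7, 51.5 and 54.8 FPKM with siSox9 and 47.9, 51.4 and 49.1 FPKM with siNC. Its log2 difference of 0.09 did not pass (limma, adjusted p = 0.138), and the lowest siSox9 library was only just above the highest siNC library. Of the 8 outer kinetochore genes, 6 fell.

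The corona forms around unattached kinetochores and catches microtubules sideways. All 3 of its members fell. Cenpe, a kinesin that moves chromosomes to the spindle equator, was at 3.27, 3.17 and 3.07 FPKM with siSox9 and at 5.28, 4.97 and 5.01 FPKM with siNC; 62.3% ± 1.62 was left, with a log2 difference of -0.55. Cenpf, a large coiled-coil protein of the same layer, fell to 56.8% ± 2.55 of siNC. Zwilch, of the complex that loads dynein and the Mad proteins, was at 3.01, 2.77 and 3.34 FPKM with siSox9 and at 4.92, 4.48 and 4.74 FPKM with siNC, a log2 difference of -0.50. In none of these genes did the groups overlap.

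The checkpoint genes also divided into those that fell clearly and those that did not. Bub1, the kinase that recruits the other checkpoint proteins and phosphorylates histone H2A, was at 3.45, 3.50 and 3.92 FPKM with siSox9 and at 5.84, 6.06 and 6.50 FPKM with siNC. Bub1b, whose product BubR1 is part of the inhibitor of the anaphase-promoting complex, was at 3.63, 3.66 and 3.76 FPKM with siSox9 and at 6.39, 6.12 and 6.54 FPKM with siNC. The BubR1 gene had the lowest adjusted p of the members, 0.000103 (limma), with a log2 difference of -0.65 and an SE of 0.0403. Mad2l1, which encodes Mad2, the protein that captures Cdc20 when a kinetochore is unattached, was at 1.88, 1.91 and 2.32 FPKM with siSox9 and at 3.83, 3.88 and 3.75 FPKM with siNC. It fell to 53.3% ± 3.77 of siNC, a log2 difference of -0.67. Ttk, the Mps1 kinase at the top of the pathway, fell to 59.3% ± 6.59 of siNC.

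Bub3, the adaptor that brings Bub1 and BubR1 to the kinetochore, was at 12.2, 12.3 and 12.7 FPKM with siSox9 and at 12.6, 12.9 and 13.0 FPKM with siNC. The groups overlapped, and the log2 difference of -0.05 did not pass (limma, adjusted p = 0.273; 95% confidence interval -0.13 to 0.02). Mad1l1, which encodes the Mad1 scaffold on which Mad2 changes shape, was at 5.92, 5.91 and 6.37 FPKM with siSox9 and at 7.13, 6.75 and 7.12 FPKM with siNC. It fell by 0.18 on the log2 scale (limma, adjusted p = 0.0187), with 86.7% ± 2.63 of siNC left. This call was lost without siSox9 replicate 1 (adjusted p = 0.0642), siSox9 replicate 2 (adjusted p = 0.0695) or siNC replicate 3 (adjusted p = 0.0648) and after rescaling to equal sums (adjusted p = 0.0939).

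The chromosomal passenger complex corrects faulty attachments, and its 3 members here are the subunits that place the Aurora B kinase on the chromosome. Cdca8, or borealin, was at 3.80, 3.81 and 3.37 FPKM with siSox9 and at 6.71, 6.04 and 6.78 FPKM with siNC, a log2 difference of -0.69. Birc5, or survivin, was at 3.99, 3.79 and 4.23 FPKM with siSox9 and at 6.18, 6.54 and 6.97 FPKM with siNC, a log2 difference of -0.60. Incenp, the scaffold of the complex, was expressed at a higher level of 13.2 ± 0.726 FPKM with siNC and fell to 69.0% ± 3.0 of it. All 3 fell, with a median log2 difference of -0.60.

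The Ska complex holds kinetochores on shrinking microtubules, and kinastrin, the product of Knstrn, works with astrin at attached kinetochores. All 4 genes fell. Knstrn was at 1.67, 1.54 and 1.45 FPKM with siSox9 and at 2.76, 3.03 and 2.96 FPKM with siNC, a log2 difference of -0.62. Ska1 was at 0.786, 0.944 and 0.815 FPKM with siSox9 and at 1.61, 1.64 and 1.39 FPKM with siNC, which left 54.8% ± 4.25 of siNC. Ska2 and Ska3 fell to 66.0% ± 5.86 and 64.7% ± 5.10 of siNC, with log2 differences of -0.48 each. On the log2(FPKM + 1) scale the difference of a gene near 1 FPKM, such as Ska1 or Nuf2, is smaller than its percentage alone would give, so the percent of siNC is given beside it.

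The ratio of a member to a partner of the same complex was taken within each library for 17 pairs, in which a gene may occur more than once. In 10 pairs the groups did not overlap (p = 0.1 by a two-sided exact permutation test, the lowest p this design allows, so that no adjusted p could pass). How often ratios of other gene pairs separate in this way was not computed, so this count has no background beside it. The direction of a ratio follows from which gene was made the denominator, and in these 10 pairs that was the gene with the smaller fall. The ratio of Bub1b to Bub3 was 0.297 ± 0.00107 with siSox9 and 0.494 ± 0.0175 with siNC (SD, n = 3). That of Bub1 to Bub3 was 0.292 ± 0.0152 and 0.476 ± 0.0193, and that of Mad2l1 to Mad1l1 was 0.335 ± 0.0259 and 0.546 ± 0.0255. Nsl1 to Mis12 was 0.0813 ± 0.00745 and 0.135 ± 0.0103. In each of these pairs the denominator is 1 of the 6 members with the smallest absolute log2 differences, so the ratios restate the separate values in a form that does not depend on the scaling of a library.

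Within the Ndc80 and Ska complexes the groups overlapped in 4 of 5 ratios. Nuf2 to Ndc80 was 0.317 ± 0.0448 with siSox9 and 0.341 ± 0.0401 with siNC, and Ska3 to Ska2 was 0.891 ± 0.074 and 0.901 ± 0.0853; the exception was Spc24 to Spc25, at 0.406 ± 0.0285 and 0.578 ± 0.0517 without overlap. The same was seen for Cdca8 to Incenp, at 0.402 ± 0.00894 and 0.494 ± 0.0295. All 17 pairs are shown in the plot of partner ratios.

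**Figure D3:**
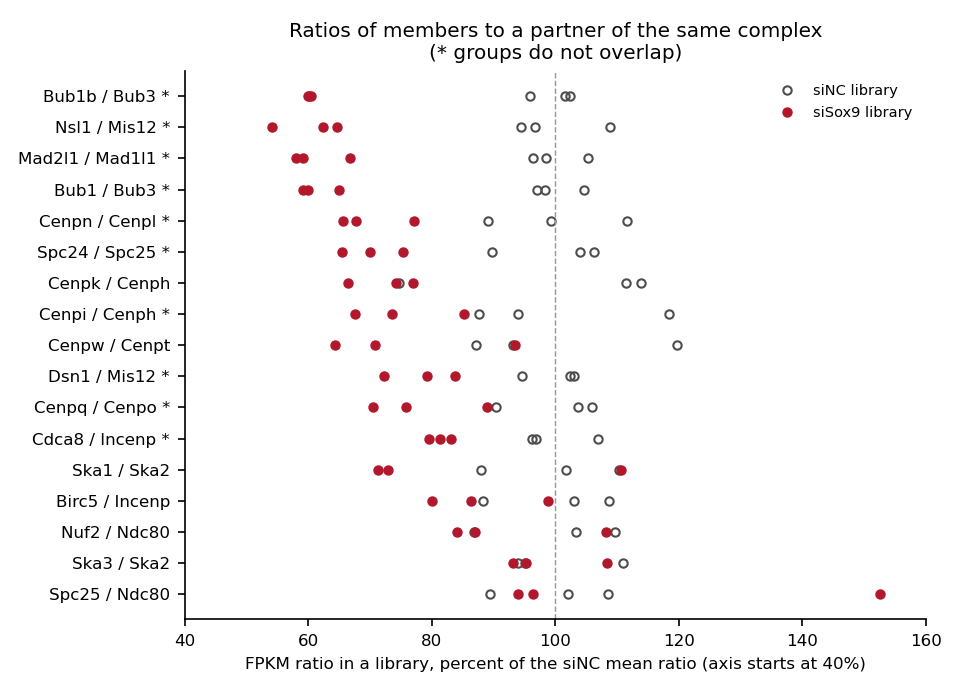
Ratio of the FPKM of a member to that of a partner of the same complex in each library, as percent of the mean siNC ratio of the pair, for 17 pairs ordered by the mean siSox9 ratio relative to siNC. Asterisks mark the 10 pairs whose groups do not overlap; Bub1b to Bub3 is at the top and Spc25 to Ndc80, where 1 siSox9 library lies far above the rest, at the bottom.

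Several members share their start region with a gene on the other strand. In the annotation that came with the FPKM values, a protein-coding neighbour on the opposite strand whose start lies within 1000 bases, at 49 to 526 bases, was analysed for 11 members. None of these neighbours is in a kinetochore list used here, and 10 of them were tested: 2 were lower, 2 were higher and 6 did not pass. These counts lie near the shares over all 12009 genes tested, of which 17.6% were lower and 12.8% higher. Ska3 starts 49 bases from Mrpl57, a mitochondrial ribosomal protein gene; Ska3 fell to 64.7% of siNC while Mrpl57 rose from 8.11 ± 0.451 to 9.66 ± 0.381 FPKM, a log2 difference of 0.23 (limma, adjusted p = 0.0124). Nsl1 starts 80 bases from Tatdn3, which was at 1.65 ± 0.146 FPKM with siNC and 1.88 ± 0.182 FPKM with siSox9 and did not pass (limma, adjusted p = 0.253). Zwilch, 271 bases from the ribosomal protein gene Rpl4, and Cenpn, 275 bases from Cmc2, also fell beside a neighbour that did not pass, with log2 differences of -0.07 for Rpl4 and -0.02 for Cmc2. Together with Cenpq and Mut, 5 members fell beside a neighbour that was not lower, as most genes tested were not.

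In the other direction, Ska2 starts 526 bases from Prr11, and both fell, Prr11 with a log2 difference of -0.74 from 6.50 ± 0.751 to 3.48 ± 0.0895 FPKM. Mad1l1 and Nudt1, 104 bases apart, were both lower, with a log2 difference of -0.29 for Nudt1. Mis12 lies 230 bases from Derl2, which was higher with a log2 difference of 0.12 (limma, adjusted p = 0.0313). The ratio of member to neighbour was lower in all siSox9 libraries for 8 of the 11 pairs and overlapped for 3. These ratios restate the separate values of member and neighbour. The share of such separation over other pairs of genes was not computed. Cenpk, Cenpo, Cenpq and Mis12 overlap their neighbour in the annotation, and whether the counting used strand is not given in the sources used here, so reads in the overlap could belong to either gene. Other members overlap expressed genes on the other strand that start farther away, among them Ska3 with Sap18, Cdca8 with 9930104L06Rik, Bub3 with Fgfr2 and Cenpp with Ippk. The values of all these members carry that uncertainty.

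**Figure D4:**
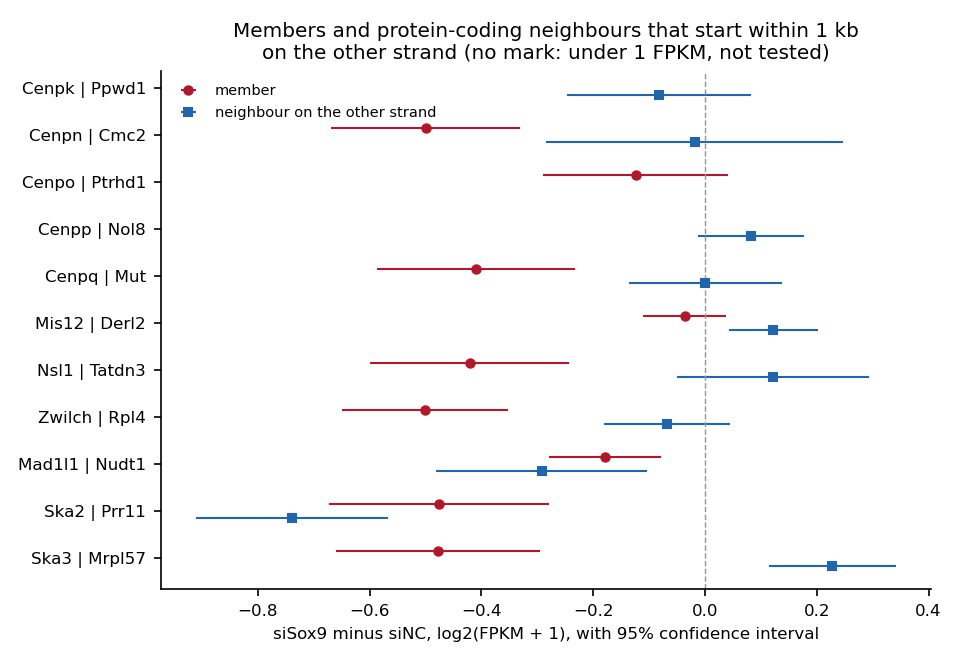
Log2 differences, siSox9 minus siNC, of 11 members (circles) and of the protein-coding gene that starts within 1000 bases on the other strand (squares), with 95% confidence intervals; genes under 1 FPKM have no mark. Ska3, Nsl1, Cenpn, Cenpq and Zwilch lie well left of their neighbours, whereas Ska2 and Prr11 are both lower.

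The other genes of the pathway were followed in a list of 28 further kinetochore, centromere and checkpoint genes. Of 24 tested, 19 were lower and none was higher, with a median log2 difference of -0.35. Cdc20, the activator of the anaphase-promoting complex that Mad2 restrains, was at 10.1, 10.8 and 10.4 FPKM with siSox9 and at 18.7, 18.9 and 21.3 FPKM with siNC, a log2 difference of -0.86. Plk1, the kinase that matures centrosomes and kinetochores, had a log2 difference of -0.82, and Aurkb, the Aurora B kinase of the passenger complex, of -0.62. Neither gene overlapped between the groups. By contrast, the anaphase-promoting complex, which the checkpoint inhibits, had a median log2 difference of -0.08 over the 13 of its 14 subunits that were tested. The largest was Anapc5, at -0.21. Of 13 subunits tested, 4 were lower (30.8%, beside 17.6% over all genes tested) and 2 were higher. These small counts were unstable, with 2 lower without siSox9 replicate 3, siNC replicate 2 or siNC replicate 3, and 1 higher without any 1 of the 3 siSox9 replicates or siNC replicate 3. Of 16 replication licensing genes, most of which act in G1 and S phase, 10 were lower and none higher, with a median of -0.30. The largest difference was that of Gmnn, or geminin, at -0.65.

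The annotation in the table allowed a wider view. Genes that carry a kinetochore term in it but are in neither list numbered 146, of which 88 were tested; 27 were lower (30.7%) and 8 were higher, with a median log2 difference of -0.07. Many such genes have duties outside mitosis. This class leaves out the members and the further list, most of which fell. Over all 197 genes with a kinetochore term, 133 were tested. Of these, 63 were lower (47.4%) and 8 were higher, with a median log2 difference of -0.13. The median of the members lay below that of either class, in a description of medians and counts that carries no test of its own. The distributions are shown in the cumulative plot.

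**Figure D5:**
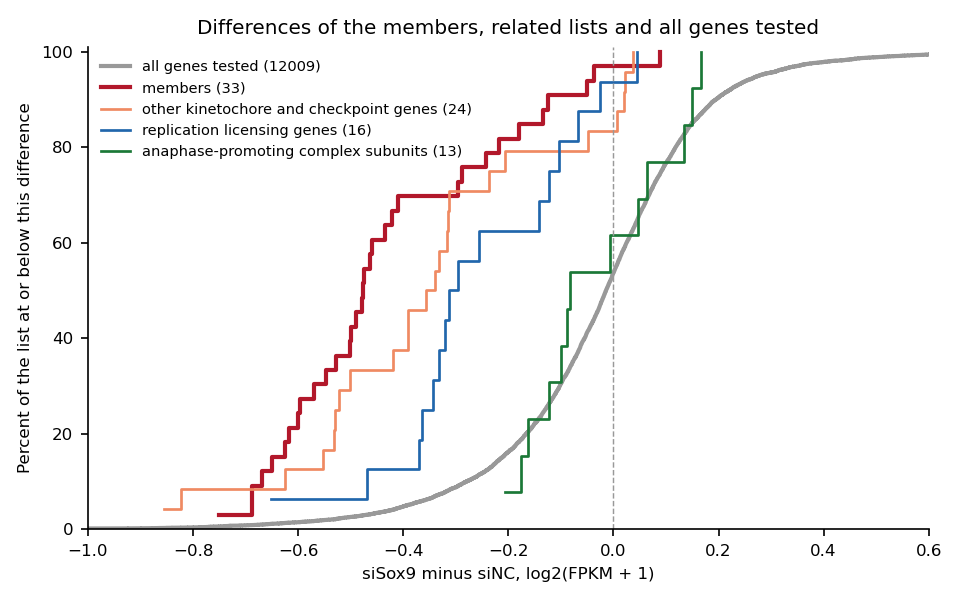
Cumulative percent of genes at or below each log2 difference, siSox9 minus siNC on log2(FPKM + 1), for all 12009 genes tested, the 33 tested members, 24 other kinetochore and checkpoint genes, 16 replication licensing genes and 13 anaphase-promoting complex subunits; a few of all genes lie beyond the axis. The member curve is displaced to the left, with a median of -0.48, and the anaphase-promoting complex subunits stay close to all genes, with a median of -0.08.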

How the data were processed

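The authors deposited FPKM values per gene for 6 RNA-Seq libraries, 3 siSox9 and 3 siNC, not scaled further between libraries. The submitters' processing notes name HISAT2 2.1.0, Bowtie2 2.2.3, TopHat2 and mm9, without roles; the counter is not given in the sources used here. Positions in the table matched GRCm38 (GENCODE M21) for 93.3% of genes, so M21 and GRCm38.p6 were used. The siSox9 columns carry another siRNA name and were matched as the siRNA that is not the control. Whole reads were recovered with M21 exon lengths for 27692 genes (all 6 libraries within 0.02 reads; 92.5 to 93.1% of values).

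Differences were fitted with limma 3.58.1 (R 4.3.3; lmFit, eBayes with trend) on log2(FPKM + 1), for genes averaging 1 FPKM or more, unpaired, with Benjamini-Hochberg adjustment over all 12009 genes. This scale understates the change of low genes. Limma voom on recovered reads was added after the data had been seen. Simulated reads for 11992 genes were tested: 97 of 100 genes changed by 1.5-fold and 99 of 100 changed by 2-fold were called, with 16 of 11792 unchanged genes called. The spread between simulated libraries was set by hand and not estimated from these libraries. Genes closest to the minimum level were not among those changed, so these counts hold for that setting only. Figures and tables used Python 3.11.15, scipy 1.17.1 and matplotlib 3.10.9.

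All 36 members are named. Values in every library are given for the 10 largest and 6 smallest absolute log2 differences and for at least 1 member of each complex; the 3 largest differences of the further kinetochore list and the largest of the other lists are named. The promoter of 1 member and 1 neighbouring gene are not reported here. Neighbours and the window near the start were chosen after values were seen. The members and lists were chosen with earlier results of these data known. Alternatives were other scalings, pseudocounts of 0.1, minimum levels, a replicate block, no variance moderation and leaving out each library.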

Additional observations from a re-analysis of the deposited data

How the results depend on the processing

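The number of members lower, 26 of 33, was 24 to 27 without any 1 library, and 6 of the 9 members that remained with a minimum of 5 FPKM; no member was higher and no direction changed in any alternative. With that minimum, 5 other kinetochore genes and 1376 genes in all were lower, fewer genes being tested. The members' median log2 difference of -0.48 was -0.59 after rescaling to equal sums, -0.45 with median-centred values, -0.42 with quantile-normalized values, -0.67 with a pseudocount of 0.1, -0.22 with the 5 FPKM minimum, and with voom on recovered reads -0.70 for the 30 members among 10223 tested genes with whole reads and -0.68 for 33 members among all genes with 10 reads; without any 1 library it was -0.49 to -0.45. Rescaling to equal sums left 1332 genes lower, and 1 anaphase-promoting complex subunit lower and 1 higher; median-centred values left 2 of these subunits lower. Without any 1 library, 1480 to 2089 genes were lower, 944 to 1565 were higher, and 2 to 3 of the subunits were lower and 1 to 2 higher; the cause was not tested. Single calls that changed were those of Cenph, Mad1l1, Cenpt and Cenpm.

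Same-numbered libraries did not deviate together (correlations of 0.0649, -0.0504 and 0.00784), so the numbers were not taken to pair the libraries. With a replicate block, 27 members, 1889 genes in all and 2 anaphase-promoting complex subunits were lower, and Cenpt passed (limma, adjusted p = 0.0313). Depth limits the 3 members under 1 FPKM, with 24 to 142 reads per library.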
